A study of Homo sapiens with 8 samples.

Results

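The genes described here are 10 that govern passage through the G1 phase of the cell cycle, in a liver cancer cell line with and without an added Axin1. They are the D-type cyclins CCND1, CCND2 and CCND3, their kinases CDK4 and CDK6, and the inhibitors CDKN1A, CDKN1B, CDKN1C, CDKN2A and CDKN2B. They were taken as a named group and matched by symbol to Ensembl gene identifiers, and all 10 were found among the 58206 genes of the count table. RNA sequencing covered 8 libraries of Alexander1, an established epithelial line from a human hepatocellular carcinoma, grown in one medium. The 4 parental libraries carry the genotype label wt (Axin1 -). According to the series' design text, that line lacks the GSK3-binding part of Axin1, a scaffold of the complex that degrades beta-catenin, and its Wnt pathway is always active. The other 4 libraries are labelled Axin1 + and come from a stable derivative, here called restored-labelled, said to carry full-length Axin1 at a physiological level. The treatment text, retroviral VSVG transfer of a plasmid with clonal selection in hygromycin B, is attached to all 8 libraries, and the plasmid is named in the genotype of the Axin1 + libraries alone. Read that way, the derivative differs from its parent by transfer, drug selection and cloning as well as by Axin1, and these cannot be told apart. The labels do not say whether the replicates are separate cultures, so p-values measure the spread between these libraries, which may be technical.

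D-type cyclins are made when growth signals arrive, bind CDK4 or CDK6, and start phosphorylation of the RB protein, which releases E2F factors and lets cells enter S phase. INK4 inhibitors, here CDKN2A (p16) and CDKN2B (p15), bind CDK4 and CDK6 themselves, whereas the CIP/KIP inhibitors CDKN1A (p21), CDKN1B (p27) and CDKN1C (p57) bind whole cyclin-kinase complexes and block CDK2 in particular. In the liver, CCND1 drives hepatocytes into division, and it is commonly listed among the genes that beta-catenin activates.

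In outline, CDKN1A rose 4.24-fold and CCND1 1.39-fold in the restored-labelled libraries, while CDK6 fell 2.54-fold, CDKN2A 1.597-fold and CDK4 1.54-fold. CCND3, CDKN1B and CDKN2B passed no threshold, and CCND2 and CDKN1C were too low to be tested. These values come from edgeR's quasi-likelihood test on the whole table, and a call means a Benjamini-Hochberg adjusted p under 0.05 over all 14289 genes tested. By that rule 5 of the 8 tested members changed, 2 higher and 3 lower, where 19.2% of all tested genes changed, 10.4% higher and 8.77% lower. All 5 also had an unadjusted p under 0.05, as 33.5% of all tested genes did. In all, 1485 genes were higher and 1253 lower, or 1724 and 868 with scaling by total counts only. In the same 5 members the 4 values of one label lay wholly above or below those of the other, which held for 23.9% of all tested genes, 12.7% higher and 11.2% lower. In RNA from whole cultures, fewer cells of a kind and less RNA per cell cannot be told apart. The members' median log2 fold change was -0.03, beside 0.003 over all tested genes, with members on both sides.

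To show the regulatory sequence beside the values, the 250 bases before the RefSeq start (GRCh38.p14) are printed for the changed members listed in the promoter table used here, 7 of the 10 members having an entry. CCND1, CCND2 and CDKN1C had no entry, so their promoters were not searched for any motif. CDK6 and CDKN2A have more than 1 start there, and the printed one is the upstream start of CDK6 and the start of the p16 transcript of CDKN2A. Each runs 5′ to 3′ on the gene's own strand: CDKN1A at chr6:36678464-36678713 (plus), CDK4 at chr12:57752311-57752560 (minus), CDK6 at chr7:92836574-92836823 (minus) and CDKN2A at chr9:21974858-21975107 (minus). Capitals mark the GC box GGGCGG, bound by Sp1-type factors, and the E-box CACGTG, bound by MYC-type factors, on either strand.
CDKN1A: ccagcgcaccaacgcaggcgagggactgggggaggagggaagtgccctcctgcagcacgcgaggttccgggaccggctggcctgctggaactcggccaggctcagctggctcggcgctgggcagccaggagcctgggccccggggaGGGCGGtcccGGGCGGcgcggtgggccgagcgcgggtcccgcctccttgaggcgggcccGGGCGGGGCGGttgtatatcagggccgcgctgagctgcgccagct
CDK4: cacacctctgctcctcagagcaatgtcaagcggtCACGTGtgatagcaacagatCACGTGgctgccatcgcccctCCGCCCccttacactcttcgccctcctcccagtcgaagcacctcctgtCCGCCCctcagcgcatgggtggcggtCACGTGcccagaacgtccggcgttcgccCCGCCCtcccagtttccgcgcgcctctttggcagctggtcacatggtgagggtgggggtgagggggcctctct
CDK6: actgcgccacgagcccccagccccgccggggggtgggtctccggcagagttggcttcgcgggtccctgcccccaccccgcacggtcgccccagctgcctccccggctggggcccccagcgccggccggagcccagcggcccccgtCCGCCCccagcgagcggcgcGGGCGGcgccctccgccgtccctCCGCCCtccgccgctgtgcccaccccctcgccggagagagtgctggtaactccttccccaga
CDKN2A: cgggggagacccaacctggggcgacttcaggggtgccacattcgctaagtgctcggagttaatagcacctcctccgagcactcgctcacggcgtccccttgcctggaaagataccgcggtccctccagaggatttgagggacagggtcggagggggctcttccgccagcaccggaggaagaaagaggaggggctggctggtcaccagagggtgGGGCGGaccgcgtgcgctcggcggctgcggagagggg
The CDK4 window holds 3 copies of CACGTG, a motif found in 6.34% of the 35116 promoter windows of this length, and 3 GC boxes. The windows of CDKN1A, CDK6 and CDKN2A hold 4, 3 and 1 GC boxes (2 of those of CDKN1A overlap), a motif present in 42.6% of all windows, and no E-box. CCAAT, present in 32.0% of all windows, was found for CCND3 and CDKN1B. None of the 11 windows listed for the members holds, on either strand, TATAAA (10.7% of all windows), CTTTGAT or CTTTGAA (TCF/LEF, 2.26% and 3.8%), TTTCCCGC or TTTGGCGC (E2F, 1.39% and 0.55%), TGACTCA (AP-1, 4.2%) or TGTTTAC (FOXO, 2.98%). Such matches describe letters in a short window and are not evidence of binding.

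Before the members, the libraries themselves were examined. Totals ran from 11232951 to 15263761 counts in the parental and from 12372436 to 26400782 in the restored-labelled libraries, so 3 counts equal 0.108 to 0.267 CPM (the count scaled to a common library total). AXIN1, counted over the whole gene, stood at 55.27, 52.81, 47.39 and 54.17 CPM in the parental and 47.60, 48.05, 48.24 and 37.71 CPM in the restored-labelled libraries. Its mean was 52.4 CPM ± 3.49 in the parental and 45.4 CPM ± 5.14 in the restored-labelled libraries (SD, n = 4 each; edgeR adjusted p = 0.267). The targeted transcript thus had no higher mean under the restored label, and all directions here follow the labels alone. Hepatocyte markers were present, with all 10 on the list tested and summed levels of 23900 to 27800 CPM and 18300 to 21700 CPM. Of these markers 5 moved with the labels, where 19.2% of all tested genes were called. TTR and FGB rose, and SERPINA1, GPC3 and TF fell, with log2 fold changes from -2.12 (GPC3) to 2.05 (FGB). Their part in the members' results was not tested. KRT8, KRT18 and CDH1 were expressed, while the epithelial marker EPCAM had at most 5 counts in a library. CDH1 rose, from 151.5 to 214.3 CPM (log2 fold change 0.50, SE 0.12, edgeR adjusted p = 0.0181), and KRT8 and KRT18 gave no call. Of 9 leukocyte, endothelial and fibroblast markers, CD3E had no count, PTPRC and DCN had at most 3 in any library, and the summed level was 7.65 to 9.62 CPM against 38.5 to 60.7 CPM. Most of that difference was PECAM1, which rose. PDGFRB went the other way, from 1.69 to 0.221 CPM (log2 fold change -2.87, edgeR adjusted p = 0.00454). The part of either gene in the results was not tested. Parental replicate 1 stood apart on the second principal component, at 61.5 against 25.0 or less elsewhere, and was low in proliferation genes, with CCNA2 at 6.23 CPM against 30.6 to 50.9 CPM in the other parental libraries. Restored replicate 1 stood apart from its group on the first component, at 22.2 against 48.7 to 56.8, and held ALB at 13.8 CPM against 444.9 to 680.9 CPM. Without both libraries CDKN1A, CCND1, CDK4, CDK6 and CDKN2A kept their calls, and CCND1 lost its call without restored replicate 1 alone.

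Among the D-type cyclins, 1 of 3 was called. CCND1 (ENSG00000110092, chromosome 11, 69641087 to 69654474, plus strand) encodes cyclin D1. In order of replicate, the parental libraries held 229.5, 222.9, 207.9 and 185.1 CPM, and the restored-labelled libraries 312.2, 338.1, 246.0 and 276.8 CPM. All 4 restored-labelled values lay above all 4 parental ones, with the closest pair at 246.0 and 229.5 CPM. The means were 211.4 CPM ± 19.7 and 293.3 CPM ± 40.3 (SD, n = 4 each). On the log2 scale the difference was 0.47 (SE 0.14, 95% interval 0.18 to 0.77; edgeR adjusted p = 0.0328). This was the least firm of the 5 calls. Leaving out parental replicate 2, 3 or 4, or restored replicate 1, 2 or 4, ended it, with edgeR adjusted p from 0.0554 to 0.0804, while the log2 fold change stayed between 0.40 and 0.55 with any 1 library left out.

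CCND3 (ENSG00000112576, chromosome 6, 41934933 to 42050357, minus strand), encoding cyclin D3, was the less abundant per length, at 4.76 against 43.8 CPM per kilobase of exon in the parental libraries. It stood at 21.9, 27.8, 29.1 and 31.7 CPM in the parental and 25.0, 23.9, 27.8 and 26.1 CPM in the restored-labelled libraries. The labels overlapped fully, the restored-labelled values lying inside the parental range. The log2 fold change was -0.10 with a 95% interval of -0.42 to 0.21 (edgeR adjusted p = 0.651), which leaves room for a modest change in either direction. CCND2 (ENSG00000118971, chromosome 12, 4273772 to 4305350, plus strand), encoding cyclin D2, was nearly silent, with 1, 0, 2 and 3 counts in the parental and 3, 1, 1 and 2 counts in the restored-labelled libraries. No fold is given for it, because no library exceeded 3 counts, and 13.2% of its 50-base transcript words also occur in another annotated gene.

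Set side by side per length, as CPM per kilobase of annotated exon, cyclin D1 supplied nearly all of the D-type cyclin mRNA. Its share of the summed level was 90.1% ± 2.15 in the parental and 93.1% ± 1.32 in the restored-labelled libraries (SD, n = 4 each), with overlapping ranges of 87.5% to 92.6% and 91.4% to 94.4%. CCND3 made up 9.91% ± 2.13 and 6.92% ± 1.32. The summed D-type level was 43.8 to 51.3 CPM per kilobase in the parental and 55.8 to 74.1 in the restored-labelled libraries, without overlap.

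The kinases moved the other way from cyclin D1. CDK6 (ENSG00000105810, chromosome 7, 92604921 to 92836594, minus strand) stood at 84.5, 94.1, 108.0 and 125.6 CPM in the parental and 53.9, 28.9, 34.5 and 44.6 CPM in the restored-labelled libraries. The lowest parental value exceeded the highest restored-labelled one by a wide margin, although both groups were spread. The means were 103.0 CPM ± 17.9 and 40.5 CPM ± 11.1 (SD, n = 4 each). On the log2 scale the difference was -1.34 (SE 0.20, 95% interval -1.78 to -0.90; edgeR adjusted p = 0.00143). The call held in every alternative run, and the fold change was largest without replicate 1 of both labels, at -1.59.

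CDK4 (ENSG00000135446, chromosome 12, 57747727 to 57756013, minus strand), the other kinase partner of the D-type cyclins, was the more abundant per length, at 87.8 against 8.40 CPM per kilobase of exon in the parental libraries. It reached 289.2, 267.2, 286.3 and 270.3 CPM in the parental and 203.8, 166.3, 200.4 and 152.3 CPM in the restored-labelled libraries. The parental values were tight and lay above all restored-labelled ones. The means were 278.3 CPM ± 11.1 and 180.7 CPM ± 25.4 (SD, n = 4 each). On the log2 scale the difference was -0.62 (SE 0.13, 95% interval -0.90 to -0.34; edgeR adjusted p = 0.00793). CDK4 shares 1369 of its 3168 annotated exon bases with TSPAN31 on the opposite strand, and whether counting used strand is not given in the sources used here. TSPAN31 was 34.5 CPM ± 4.2 and 37.7 CPM ± 4.02 (SD, n = 4 each), with no call (log2 fold change 0.13, edgeR adjusted p = 0.550).

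Together, CDK4 and CDK6 gave 92 to 99.2 CPM per kilobase in the parental and 51.7 to 68.7 CPM per kilobase in the restored-labelled libraries. CDK6 contributed 8.74% ± 1.54 of that sum in the parental and 5.50% ± 1.43 in the restored-labelled libraries (SD, n = 4 each), with ranges of 7.02% to 10.7% and 4.26% to 7.04% that overlapped slightly. By counts, without division by length, its share was 26.9% and 18.3%. In the parental libraries the summed kinase level exceeded the summed D-type cyclin level in each library. Under the restored label the kinase sum was the higher in 1 of 4 libraries, and in replicate 1 the sums were nearly equal (68.72 and 68.97 CPM per kilobase). By counts, kinase sums under that label were 195.2 to 257.7 CPM, all below the cyclin sums of 273.9 to 362.1 CPM. In the parental libraries they were 361.3 to 395.9 CPM against 217.1 to 251.5 CPM. Under the restored label the comparison thus depends on the exon lengths used.

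**Figure D1:**
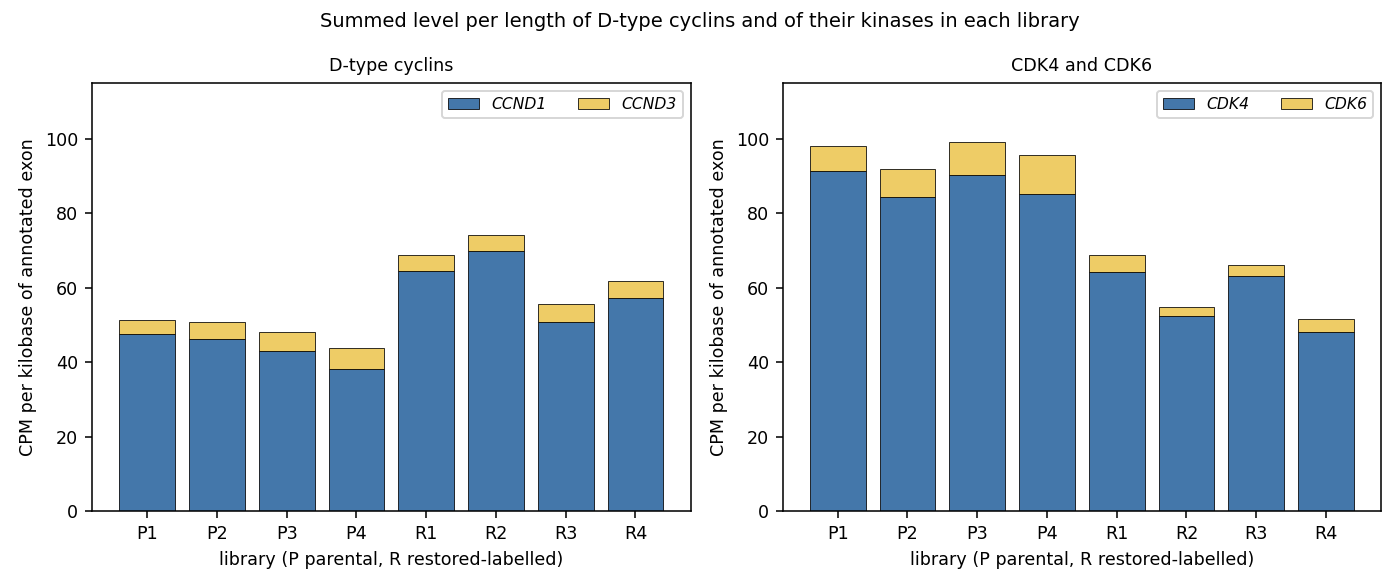
Stacked bars give the summed level per length (CPM per kilobase of annotated exon, axis from 0) of the D-type cyclins (left; CCND2 is too low to be seen) and of CDK4 and CDK6 (right) in each of 4 parental (P) and 4 restored-labelled (R) libraries. Cyclin sums lie between 43.8 and 51.3 in P and 55.8 and 74.1 in R, and kinase sums between 92 and 99.2 in P and 51.7 and 68.7 in R.

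The CIP/KIP inhibitors held the largest change among the members. CDKN1A (ENSG00000124762, chromosome 6, 36676460 to 36687339, plus strand) encodes p21, which halts CDK2 complexes. It reached 41.74, 33.99, 39.02 and 35.14 CPM in the parental libraries and 129.4, 184.0, 161.8 and 160.0 CPM in the restored-labelled ones. Every restored-labelled library held at least 3 times the highest parental level. The means were 37.5 CPM ± 3.57 and 158.8 CPM ± 22.5 (SD, n = 4 each). On the log2 scale the difference was 2.08 (SE 0.14, 95% interval 1.78 to 2.39; edgeR adjusted p = 8.4e-06). In all 18 alternatives the log2 fold change stayed between 2.01 and 2.23 and the call held.

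CDKN1B (ENSG00000111276, chromosome 12, 12715058 to 12722371, plus strand), encoding p27, gave no call. It stood at 18.42, 30.40, 34.03 and 31.27 CPM in the parental and 36.88, 21.71, 28.98 and 33.38 CPM in the restored-labelled libraries. The labels overlapped, with 1 low library in each. The log2 fold change was 0.09 (95% interval -0.38 to 0.56; edgeR adjusted p = 0.808), and it became -0.18 without replicate 1 of both labels.

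CDKN1C (ENSG00000129757, chromosome 11, 2883213 to 2885773, minus strand), the imprinted gene for p57, was rare and failed the expression filter. It had 8, 6, 1 and 2 counts in the parental and 17, 17, 22 and 19 counts in the restored-labelled libraries, or 0.712, 0.406, 0.0891 and 0.143 CPM against 0.610, 1.403, 1.084 and 0.742 CPM. Parental replicate 1 lay above restored replicate 1, and the other 3 parental libraries lay below all restored-labelled ones. With no expression filter its log2 fold change was 1.5 (SE 0.56, edgeR adjusted p = 0.0801). In fits with a library left out it met the filter mostly through the counts of the restored-labelled libraries, where it is high, so its calls there are not used.

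The INK4 inhibitors CDKN2A and CDKN2B share a locus on chromosome 9, and CDKN2A alone of the pair was called; the difference between them was not tested. CDKN2A (ENSG00000147889, 21967753 to 21995301, minus strand) encodes p16 and, from another first exon and reading frame, p14ARF. The table holds 1 count per gene, so the 2 products cannot be told apart. The level was 69.06, 82.60, 68.95 and 74.93 CPM in the parental and 48.7, 49.7, 48.8 and 37.9 CPM in the restored-labelled libraries. The labels did not overlap, and 3 of the 4 restored-labelled libraries lay between 48.7 and 49.7 CPM, with replicate 4 lower. The means were 73.9 CPM ± 6.45 and 46.3 CPM ± 5.58 (SD, n = 4 each). On the log2 scale the difference was -0.68 (SE 0.13, 95% interval -0.96 to -0.39; edgeR adjusted p = 0.00530).

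CDKN2B (ENSG00000147883, 22002903 to 22009363, minus strand), encoding p15, stood at 5.07, 6.77, 6.41 and 4.58 CPM in the parental and 5.96, 6.44, 4.58 and 6.56 CPM in the restored-labelled libraries. The groups overlapped throughout, with a log2 fold change of 0.04 (95% interval -0.43 to 0.51; edgeR adjusted p = 0.912). The other genes at the locus gave no call either. MTAP, a methionine salvage enzyme, was 15.9 CPM ± 2.68 and 14.0 CPM ± 1.36 (SD, n = 4 each), with a log2 fold change of -0.18. The antisense RNA CDKN2B-AS1 (1.11 and 1.16 CPM) and the transcription factor gene DMRTA1 (2.06 and 2.61 CPM) had log2 fold changes of 0.06 and 0.34. CDKN2A and CDKN2B share 31 words of 50 bases, 0.681% and 0.765% of their annotated transcript words. CDKN2B-AS1 overlaps 341 exon bases of CDKN2A on the opposite strand.

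**Figure D2:**
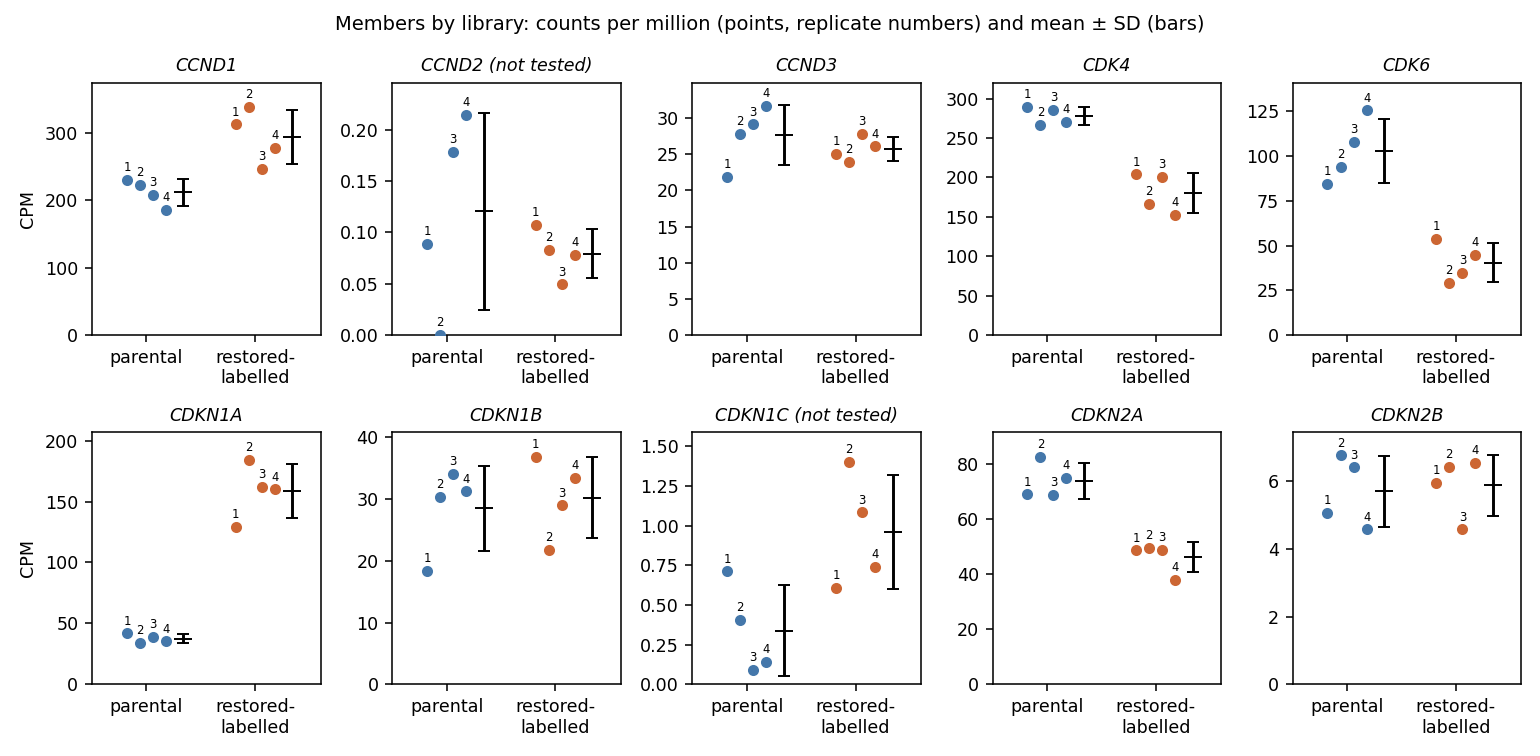
Each panel plots 1 gene in CPM (linear axis from 0) for the 4 parental (blue) and 4 restored-labelled (orange) libraries, numbered by replicate, with the mean ± SD in black. CDKN1A is higher in every restored-labelled library (129.4 CPM or more against 41.7 CPM or less), CDK4, CDK6 and CDKN2A are lower in each, and CCND3, CDKN1B and CDKN2B overlap.

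For each of the 5 called members, an exact two-sided permutation test of log2 CPM over the 70 labelings of 8 libraries gave p = 0.0286, the smallest that 4 against 4 allow. Full separation of the labels, seen in 23.9% of all tested genes, fixes this p, so it adds no support beyond the separation itself. CCND3, CDKN1B and CDKN2B gave p = 0.514, 0.629 and 0.857 in the same exact test.

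**Figure D3:**
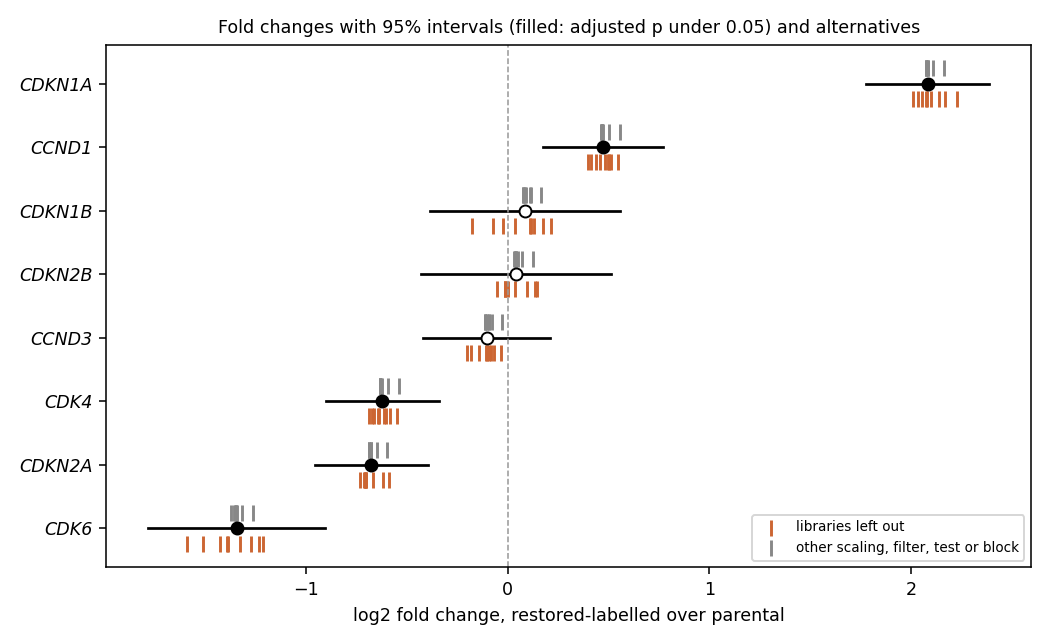
Points give log2 fold changes (restored-labelled relative to parental) of the 8 tested members with 95% intervals, filled where the edgeR adjusted p is under 0.05. Orange ticks show fits with libraries left out and grey ticks the other alternatives; those of CDKN1A lie between 2.01 and 2.23 and those of CDKN1B on both sides of 0.

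The order of the members per length changed between the labels. In the parental libraries CDK4 led with 87.8 CPM per kilobase ± 3.52, ahead of CCND1 at 43.8 ± 4.08, CDKN2A at 17.1 ± 1.49 and CDKN1A at 12.3 ± 1.17 (SD, n = 4 each). CDKN1A, CDKN1B (10.2 ± 2.46) and CDK6 (8.40 ± 1.46) followed, and among these 3 each overlapped its neighbour in range. CCND3 (4.76), CDKN2B (1.41), CDKN1C (0.136) and CCND2 (0.0168 CPM per kilobase) came last. Under the restored label CCND1 (60.7 ± 8.34), CDK4 (57.04 ± 8.01) and CDKN1A (52.1 ± 7.36 CPM per kilobase) formed a leading trio whose ranges overlapped. CDKN1B (10.8 ± 2.33) and CDKN2A (10.7 ± 1.29) overlapped next, as did CCND3 (4.43) and CDK6 (3.30 CPM per kilobase) after them, and CDKN2B (1.45), CDKN1C (0.387) and CCND2 (0.0111 CPM per kilobase) came last. These levels divide by all annotated exon bases, from 2478 for CDKN1C to 12260 for CDK6, and would shift if shorter isoforms dominate.

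**Figure D4:**
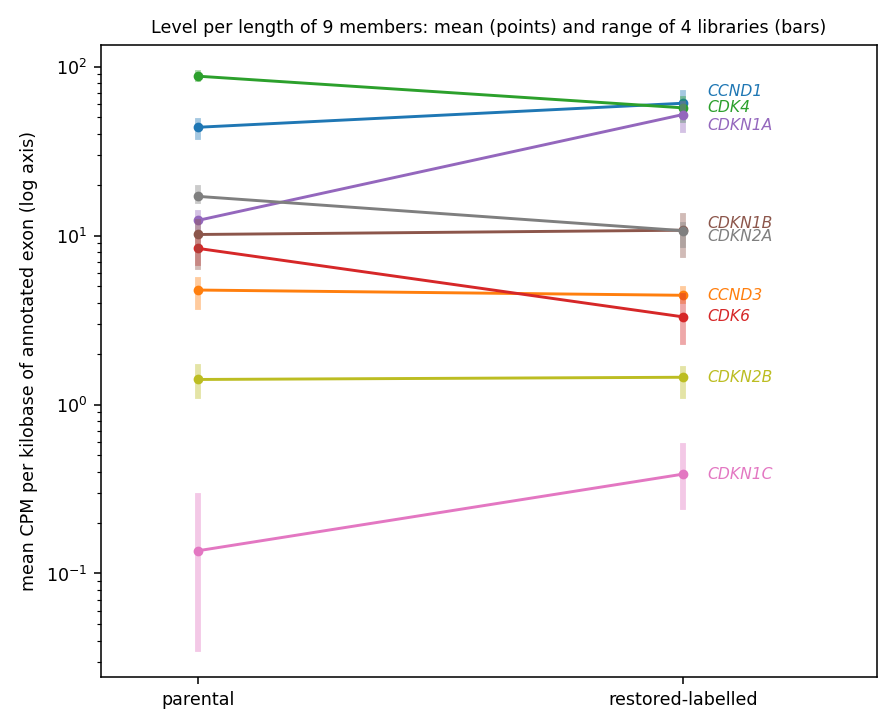
Mean CPM per kilobase of annotated exon (log axis) for 9 members in the parental and restored-labelled libraries, with bars for the range of 4 libraries; CCND2 is left out because 1 library had no count. CDKN1A climbs from 12.3 to 52.1 and reaches CCND1 and CDK4, while CDK6 drops from 8.40 to 3.30.

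Genes that lie beside the members were read from the same fit. The 20 nearest tested genes around CDKN1A had 0.04 as their median log2 fold change, and those around CDK6 had 0.08, against the 2.08 and -1.34 of the members. Around CCND1 the neighbours' median was -0.21, opposite in sign to the gene, with none higher and 4 lower of 20. CDK4 sat among neighbours with a median of -0.25, also none higher and 4 lower of 20, and differed from that median by -0.37. Around CDKN2A the median was 0.20, with 1 higher and 2 lower of 20 genes that span 13.5 megabases. Of all tested genes, 10.4% were higher and 8.77% lower. Of the listed 11q13 genes tested beside CCND1, none was higher. CTTN, which encodes the actin regulator cortactin, fell (log2 fold change -0.44, SE 0.12, edgeR adjusted p = 0.0248). The CTTN call was lost in 9 of 18 alternatives, the threshold of 0.01 among them. LTO1, FADD and PPFIA1 had values of -0.21, -0.23 and -0.21 with no call, FGF3, FGF4 and FGF19 had at most 6 counts per library, and ANO1 at most 14. LTO1 shares 497 exon bases with CCND1 on the opposite strand and averaged 31.0 CPM ± 6.87 and 26.8 CPM ± 3.38 (SD, n = 4 each).

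Downstream of the members, the RB and E2F machinery was compared through 20 genes, all tested. Of these, 1 rose and 1 fell, with a median log2 fold change of 0.16, where 10.4% of all tested genes rose and 8.77% fell. RBL2, which encodes the RB relative p130 of resting cells, rose, with 13.9 CPM ± 4.66 in the parental and 26.5 CPM ± 7.09 in the restored-labelled libraries (SD, n = 4 each), or 0.94 on the log2 scale (SE 0.26, edgeR adjusted p = 0.0310). Its 2 groups overlapped slightly, a parental library at 19.25 CPM lying above a restored-labelled one at 19.07 CPM. The call ended without parental replicate 2 or 3 or restored replicate 3 or 4. On the opposite strand RBL2 shares 610 exon bases with AKTIP and 721 with another annotated gene. E2F4, the repressive E2F that pairs with p130, fell, with 82.3 CPM ± 3.84 in the parental and 62.6 CPM ± 7.27 in the restored-labelled libraries (log2 fold change -0.40, SE 0.12, edgeR adjusted p = 0.0375). The E2F4 call was lost in 10 of 18 alternatives, the threshold of 0.01 among them. RB1 itself had a log2 fold change of -0.15 (95% interval -0.90 to 0.61) with no call. It was called without replicate 1 of both labels, at -0.69 (edgeR adjusted p = 0.0250). That fit was added after seeing the data and called 4623 genes, against 2738 in the main fit. E2F1 had a log2 fold change of 0.37 with separated groups and no call (edgeR adjusted p = 0.0930). CCNE1, the cyclin that partners CDK2 at the G1/S boundary, was 21.2 CPM ± 5.05 and 18.8 CPM ± 2.49, and CDK2, the kinase that p21 and p27 block, was 43.5 CPM ± 14.7 and 50.3 CPM ± 16.6 (SD, n = 4 each). Neither was called, and CDK2's log2 fold change of 0.21 became -0.24 without replicate 1 of both labels. The other INK4 genes CDKN2C and CDKN2D gave log2 fold changes of 0.15 and 0.02 with no call.

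Of 20 E2F target and proliferation genes, 2 rose (TOP2A and CDC6), none fell and 18 were not called. Over all tested genes, 10.4% were higher and 8.77% lower. CDC6 and TOP2A lie close together on chromosome 17, starting at 40287633 and 40388516. The median log2 CPM of that list was 5.35 in parental replicate 1 and 6.19 to 6.88 in the other parental libraries, against 6.18 to 6.67 in the restored-labelled ones. CDKN1A, CCND1, CDK4, CDK6 and CDKN2A kept their calls without parental replicate 1.

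Among 28 other cyclins and CDKs, 3 rose and none fell, with a median of 0.20, where 10.4% of all tested genes rose and 8.77% fell. CCNG2, an atypical cyclin of arrested cells, rose, with 3.51 CPM ± 0.609 in the parental and 7.79 CPM ± 1.32 in the restored-labelled libraries (SD, n = 4 each; log2 fold change 1.15, SE 0.22, edgeR adjusted p = 0.00503) and kept its call in all 18 alternatives. The transcriptional kinase CDK12 rose by 0.69 (SE 0.17) and the Mediator kinase CDK19 by 0.67 (SE 0.19) on the log2 scale, with edgeR adjusted p of 0.0183 and 0.0290. CDK12 lost its call without parental replicate 2 or restored replicate 4, and CDK19 under the replicate block and without any of 4 single libraries. CDK12 starts at 39461511 on chromosome 17, near CDC6 and TOP2A, and a shift of that region was not tested.

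The stability of cyclins and inhibitors depends on ubiquitin ligases and the proteins that assist or oppose them. A list of 18 genes of ligase parts and such other factors included GSK3B, USP2 and COPS5. It gave 1 rise and 1 fall, with a median of 0.01, where 10.4% of all tested genes rose and 8.77% fell. SKP1, a core subunit of the SCF ligases that degrade p27 and cyclin E, rose, with 69.0 CPM ± 11.97 in the parental and 134.7 CPM ± 16.1 in the restored-labelled libraries (SD, n = 4 each; log2 fold change 0.97, SE 0.15, edgeR adjusted p = 0.00170). FBXO31, a ligase subunit that acts on cyclin D1, fell, with 39.2 CPM ± 6.002 in the parental and 27.1 CPM ± 1.65 in the restored-labelled libraries (log2 fold change -0.53, SE 0.14, edgeR adjusted p = 0.0231). The FBXO31 call was lost under the replicate block and without any of 4 single libraries. FBXO31 shares 388 exon bases with another annotated gene on the same strand, and others with genes on the opposite strand, MAP1LC3B among them. SKP2, the subunit that recognises p27, was 25.7 CPM ± 6.05 and 19.2 CPM ± 1.56 with no call (log2 fold change -0.42, edgeR adjusted p = 0.136), but was called without parental replicate 1, at -0.57 (edgeR adjusted p = 0.00986), and without replicate 1 of both labels, at -0.60 (edgeR adjusted p = 0.00656). These fits called 3523 and 4623 genes in all, against 2738 in the main fit, and the latter was added after seeing the data. SKP1 overlaps TCF7 over 210 exon bases on the opposite strand, and another annotated gene over 171 on the same strand.

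Upstream, 23 transcription regulators known to act on the members' genes gave 2 rises and 7 falls, with a median of -0.26. The shares over all tested genes were 10.4% higher and 8.77% lower. MYC was 63.8 CPM ± 20.7 and 50.9 CPM ± 11.3, with a log2 fold change of -0.32 and no call (edgeR adjusted p = 0.379). It was called at -0.57 without replicate 1 of both labels (edgeR adjusted p = 0.0281), in the fit added after seeing the data, where 4623 genes were called. Of the 3 FOXO factors listed, which can induce CDKN1A and CDKN1B, FOXO1 fell and FOXO3 and FOXO4 rose. FOXO3 averaged 26.3 CPM ± 4.22 in the parental and 37.3 CPM ± 4.47 in the restored-labelled libraries (log2 fold change 0.50, SE 0.15, edgeR adjusted p = 0.0403). FOXO1 fell, with 35.8 CPM ± 6.52 in the parental and 12.6 CPM ± 6.63 in the restored-labelled libraries (log2 fold change -1.49, SE 0.30, edgeR adjusted p = 0.00675), and FOXO4 rose, with 16.1 CPM ± 2.31 in the parental and 26.8 CPM ± 4.79 in the restored-labelled libraries (log2 fold change 0.73, SE 0.17, edgeR adjusted p = 0.0160). FOSL1, a subunit of the AP-1 factor, fell, with 69.4 CPM ± 20.96 in the parental and 14.2 CPM ± 14.0 in the restored-labelled libraries (log2 fold change -2.28, SE 0.55, edgeR adjusted p = 0.0173), and moved to -3.26 without restored replicate 1. TBX3, a repressor of the CDKN2A locus, fell by 1.47 on the log2 scale (SE 0.39, edgeR adjusted p = 0.0252). The TBX3 call was lost in 8 of 18 alternatives, the threshold of 0.01 among them. FOXO4 lost its call without parental replicate 2 or restored replicates 3 or 4, and FOSL1 without restored replicate 4. FOXO1 shares 269 exon bases with LINC00598 on the same strand.

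**Figure D5:**
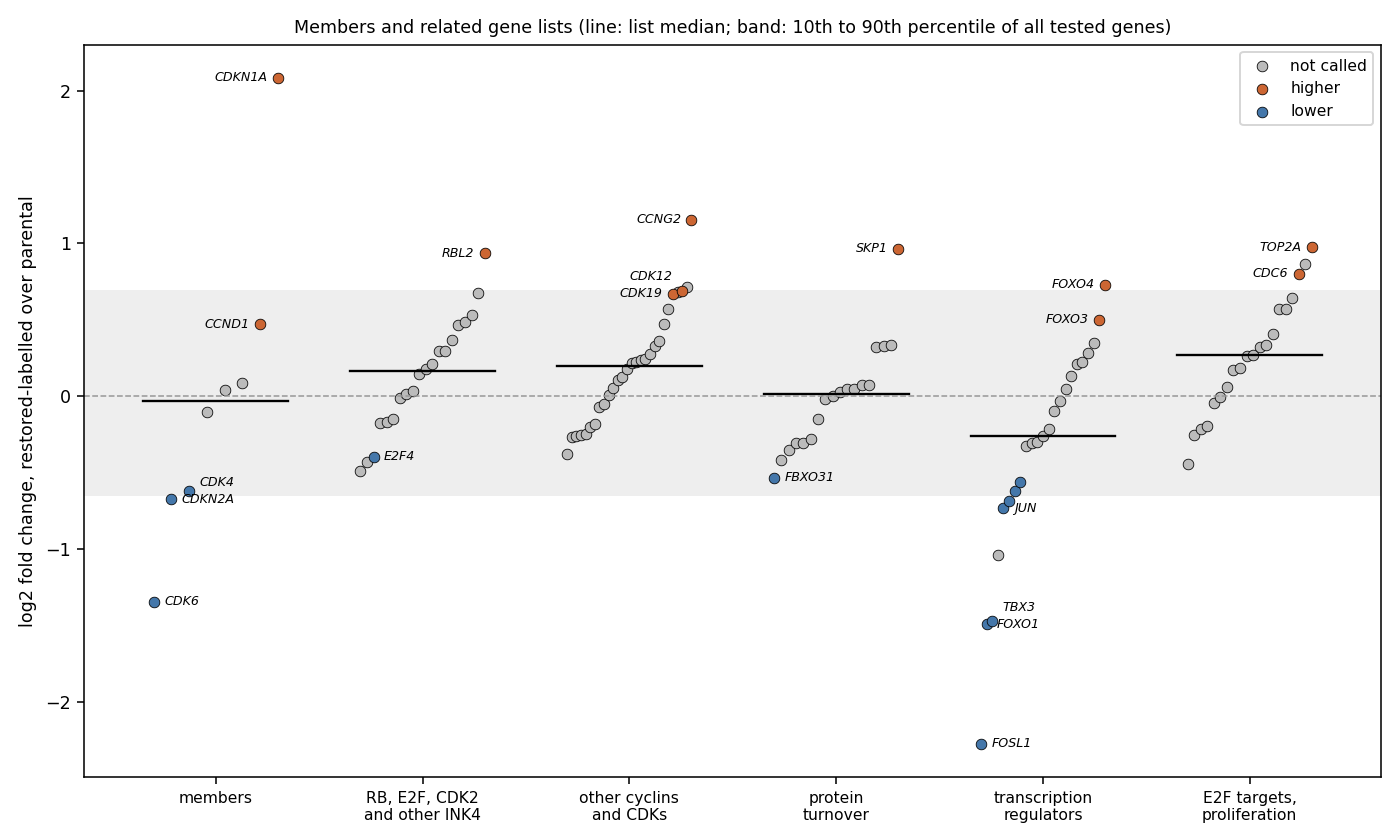
Points give log2 fold changes (restored-labelled relative to parental) of each tested gene in 6 lists, coloured where the edgeR adjusted p is under 0.05, with the list median as a line and the 10th to 90th percentile of all tested genes (-0.65 to 0.69) as a band. CDKN1A, CDK6 and CDKN2A lie outside the band, and most genes of the RB, turnover and proliferation lists lie inside it.

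The genes whose pattern over the 8 libraries was most like that of CDKN1A, the member with the smallest p-value, were sought among 9371 genes with a mean of at least 10 CPM. SMOC1, PECAM1 and HLA-B ranked first, with Pearson r of 0.994, 0.994 and 0.994 on log2 CPM. SMOC1 averaged 0.374 CPM ± 0.0481 in the parental and 57.4 CPM ± 19.0 in the restored-labelled libraries, PECAM1 5.18 CPM ± 0.951 and 48.2 CPM ± 10.3 and HLA-B 22.6 CPM ± 3.83 and 76.9 CPM ± 5.01 (SD, n = 4 each). SMOC1 and PECAM1, with parental means under 10 CPM, met the limit through the restored-labelled libraries, where they are high. The 8 libraries form 2 separated groups in all 3 genes, so r is given as a description with no test. HLA-B belongs to a family of near-identical genes, which makes its counts uncertain.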

How the data were processed

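Transcripts of 8 libraries were counted by RNA sequencing, 4 parental and 4 restored-labelled, grouped and numbered by the sample titles. Raw counts, not normalized, make up the deposited gene table. Per the submitters' processing notes, bcl2fastq, fastp 0.23.1, STAR 2.7.4 and GRCh38 were used, with no roles stated; the counting program, annotation and use of strand are not given in the sources used here. Each column was matched to its sample by name, and 0 columns belonged to no sample.

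GENCODE release 29 (GRCh38) held 57943 of the 58206 identifiers, and 57495 had a symbol. In R 4.3.3, edgeR 4.0.16 kept genes by filterByExpr (minimum count 10, minimum total 15), scaled libraries by TMM and compared the groups with the quasi-likelihood test without covariates, adjusted by Benjamini-Hochberg over 14289 genes at 0.05. Each standard error is the size of the log2 fold change divided by root F. CPM uses TMM-scaled totals, and log2 CPM a prior count of 2. Of all counts, 99.75% to 99.85% fell in tested genes. The main test was also checked on simulated counts. It recovered 6% of simulated 1.5-fold changes, 50% of 2-fold, 90% of 4-fold and 100% of 8-fold, and 6.11% of its calls were false. Most changes of 1.5-fold thus went uncalled there. Recovery after adjustment depends on the share of changed genes, so these percentages do not give the sensitivity in the real data.

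Alternatives were 3 other scalings (upper quartile, DESeq2 size factors, total counts only), 2 other filters (none, or a mean of 1 CPM or more), 2 other tools (limma-voom with limma 3.58.1, and the Wald test of DESeq2 1.42.0), the replicate number as a block, a threshold of 0.01, each library left out, and, added after seeing the data, replicate 1 of both labels left out and CDK4 and CDK6 shares by counts. Members and lists were chosen with earlier results of these data known. Named genes are the 10 members, AXIN1, the genes of the 2 loci, 7 fixed context genes, up to 4 called genes with the smallest p-value per related list, and the 3 genes most like the member with the smallest p-value; CDKN2C, CDKN2D, TSPAN31, CCNA2, FOXO3, TOP2A and CDC6 were added after their values were seen. The values of 1 of the 7 context genes are not reported here.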

Additional observations from a re-analysis of the deposited data

Results flagged for a closer look

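Groups of 4 libraries were checked for a single library standing far from the other 3, over 78 groups of values; chance flags about 1 in 20 such groups, and 5 were flagged. CDKN2A was 37.9 CPM in restored replicate 4, where the nearest other library of that label had 48.7 CPM. AXIN1 was also low in restored replicate 4, at 37.7 CPM against 47.6 CPM or more. FOXO1 was high in restored replicate 1, at 22.5 CPM against 10.2 CPM or less. FOXO4 was low in the same library, at 19.7 CPM against 28.4 CPM or more, and CTTN was high there, at 256.9 CPM against 211.5 CPM or less. CDKN2A stayed past the threshold without restored replicate 4, with a log2 fold change of -0.59.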

How the results depend on the processing

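CDKN1A, CDK4, CDK6 and CDKN2A kept their direction and their side of the threshold in all 18 alternatives, and CCND3 never passed it. With 1 library left out, log2 fold changes ranged from 2.01 to 2.17 for CDKN1A, 0.40 to 0.55 for CCND1, -0.20 to -0.03 for CCND3, -0.69 to -0.55 for CDK4, -1.51 to -1.21 for CDK6 and -0.71 to -0.59 for CDKN2A. CCND1 also lost its call under the replicate block (0.47, with an edgeR adjusted p of 0.0567), and the cause was not tested. At a threshold of 0.01 it was not called because its edgeR adjusted p in the unchanged main fit was 0.0328. The block left 4 of 8 members called and 2033 genes in all. Deviations of same-numbered libraries from their group means had correlations of -0.0629, 0.00667, -0.0325 and 0.227. Those of different-numbered pairs ran from -0.425 to 0.448. With so few libraries per label, this check cannot show whether a shared number marks a shared culture or batch.

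Signs turned, with no call, for CDKN1B (-0.18) and CDK2 (-0.24) without replicate 1 of both labels, for CDKN2B (-0.015) in the same fit, and with single libraries left out for CDKN1B, CDKN2B, CDK2, RB1 and CDKN2B-AS1, which ranged from -0.074 to 0.21 for CDKN1B, -0.053 to 0.15 for CDKN2B, -0.037 to 0.38 for CDK2, -0.48 to 0.055 for RB1 and -0.24 to 0.38 for CDKN2B-AS1.

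The number of genes called was 964 at a threshold of 0.01, 4623 without replicate 1 of both labels, and 1394 to 3523 with 1 library left out, lowest without restored replicate 4 (1394), parental replicate 2 (1508) and restored replicate 3 (1531). Of the 8 members tested in the main comparison, 4 or 5 were called in each alternative. By counts rather than per length, the CCND2 share under the restored label was 0.0246% in place of 0.0168%, and the CDK6 share of the kinase sum was 26.9% and 18.3% in place of 8.74% and 5.50%. At these totals, CDKN1C and CCND2 rest on at most 22 counts per library, and a difference in CCND2 was not detectable.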
